A study of Mus musculus with 2 samples.

Results

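The alpha-defensins of Paneth cells are described here through 10 genes, Defa3, Defa17, Defa20, Defa21, Defa22, Defa23, Defa24, Defa26, Defa29 and Defa30, chosen by symbol from the 19294 genes of the count table. All 10 were present. The RNA came from mouse intestinal organoids (mIOs) carrying the Lgr5-EGFP-IRES-creERT2 allele, in which the reporter marks Lgr5+ stem cells, and both cultures shared this genotype. The organoids were kept in medium with EGF, Noggin and R-spondin. A control culture and a culture treated with dextran sulfate sodium (DSS), a sulfated sugar polymer used to injure the intestinal epithelium, were compared at day 4, with 1 library each and no dose or animal age in the labels. The difference between the libraries therefore had no replicate check, and the 95% intervals given here cover counting error only.

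Paneth cells sit at the base of small intestinal crypts, between the Lgr5+ stem cells. Their granules hold antimicrobial products, of which the alpha-defensins, called cryptdins in the mouse, are the best known. An alpha-defensin is made as a precursor with a signal peptide and a propeptide, and the mature peptide at its end is a short cationic chain folded by disulfide bonds between its cysteines. In the mouse, the metalloproteinase encoded by Mmp7 cleaves the precursor. The genes lie in a cluster on chromosome 8, where repeated duplication has left several nearly identical copies, and a subfamily called cryptdin-related sequence peptides has a different cysteine pattern.

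The part of each gene that encodes the mature peptide is printed below, because it shows how the members differ in this stretch. Whether a read can tell copies apart also depends on the rest of the transcript. Each sequence is the coding part of exon 2, from coding position 173 to the stop codon, in the GENCODE M21 annotation of build GRCm38, read 5′ to 3′ on the strand of the gene. Capitals mark the cysteine codons in the reading frame.
Defa24: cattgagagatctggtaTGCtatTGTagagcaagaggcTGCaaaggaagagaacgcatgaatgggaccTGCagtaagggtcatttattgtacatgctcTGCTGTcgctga
Defa30: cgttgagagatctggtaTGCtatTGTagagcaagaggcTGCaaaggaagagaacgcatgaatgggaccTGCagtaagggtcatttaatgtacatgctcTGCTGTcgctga
Defa3 and Defa17: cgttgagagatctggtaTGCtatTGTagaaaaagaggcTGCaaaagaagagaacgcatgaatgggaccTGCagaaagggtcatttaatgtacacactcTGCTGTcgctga
Defa23: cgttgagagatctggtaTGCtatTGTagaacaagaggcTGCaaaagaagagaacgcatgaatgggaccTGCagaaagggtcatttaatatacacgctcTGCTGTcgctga
Defa26: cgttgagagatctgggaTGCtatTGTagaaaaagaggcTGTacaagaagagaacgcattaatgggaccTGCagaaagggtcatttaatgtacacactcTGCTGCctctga
Defa20: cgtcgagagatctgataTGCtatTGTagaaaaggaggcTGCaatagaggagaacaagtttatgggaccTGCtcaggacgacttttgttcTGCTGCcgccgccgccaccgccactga
Defa21: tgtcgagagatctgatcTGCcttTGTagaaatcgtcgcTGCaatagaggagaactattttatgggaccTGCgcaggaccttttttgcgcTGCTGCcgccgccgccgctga
Defa22: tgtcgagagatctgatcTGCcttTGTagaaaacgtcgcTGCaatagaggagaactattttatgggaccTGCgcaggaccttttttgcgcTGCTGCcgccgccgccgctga
Defa29: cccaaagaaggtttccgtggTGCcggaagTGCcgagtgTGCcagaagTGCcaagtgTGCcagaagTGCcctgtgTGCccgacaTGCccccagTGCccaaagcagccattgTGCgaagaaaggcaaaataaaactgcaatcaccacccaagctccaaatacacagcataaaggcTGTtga
The stretches lie at chr8:21735268-21735377, plus strand (Defa24), chr8:21135394-21135503, plus strand (Defa30), chr8:21288174-21288283, plus strand (Defa3), chr8:21656532-21656641, plus strand (Defa17), chr8:21055812-21055921, plus strand (Defa23), chr8:21618773-21618882, plus strand (Defa26), chr8:21510028-21510143, plus strand (Defa20), chr8:21026314-21026423, plus strand (Defa21), chr8:21163046-21163155, plus strand (Defa22) and chr8:21325999-21326177, minus strand (Defa29). They held 6 cysteine codons in 9 members and 11 in Defa29, whose stretch was also longer, at 179 bases against 110 bases in most members and 116 bases in Defa20.

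Defa3 and Defa17 did not differ at any coding base. Over the whole coding sequence, with positions counted from 1 at the A of the start codon, Defa24 and Defa30 differed by T72C, G154T, A174G and T259A, with the base of Defa24 first. Defa21 and Defa22 differed by T114G and T204A, with the base of Defa21 first. Between Defa17 and Defa23 there were 6 differences, G31A, G109A, C114G, A203C, G261A and A267G, with the base of Defa17 first.

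Near-identity also reached genes outside the 10. The count table held 23 alpha-defensin rows in all, of which 22 were protein-coding and 1, Defa-ps16, was a pseudogene. Defa23 had the same coding sequence as Defa31, and Defa20 the same as Defa32, with 1 difference from Defa2 and from Defa33. When every transcript was cut into windows of 100 bases, 99.7% of the windows of Defa20, 90.6% of those of Defa17, 89.1% of those of Defa23 and 86.8% of those of Defa3 were also found in transcripts of other genes. The share was 40.4% for Defa21 and 40.3% for Defa22, 11% for Defa29, 1.10% for Defa26 and 0.334% for Defa30. No window of Defa24 was found elsewhere. How reads with several matches were counted is not given in the sources used here, so the values of Defa3, Defa17, Defa20, Defa21, Defa22 and Defa23 are best read with their copies. The read length is not given either. With windows of 50 bases the share was 28.1% for Defa24, 40.2% for Defa26, 43.4% for Defa29 and 52.4% for Defa30.

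**Figure D1:**
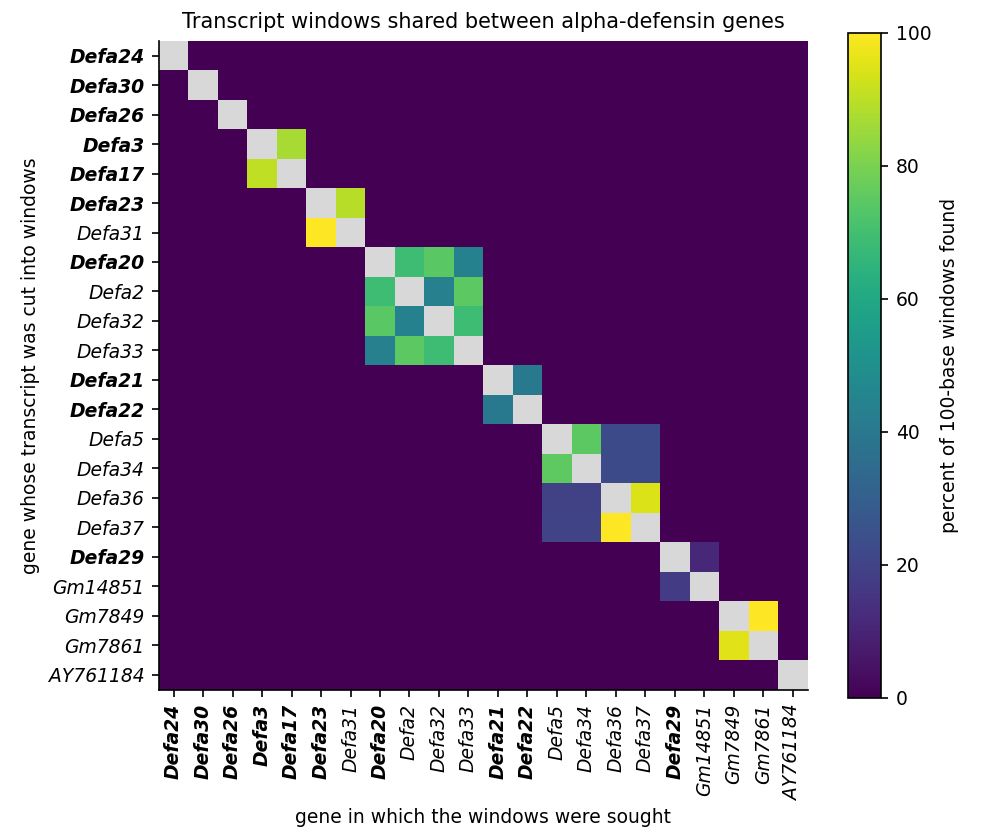
Percent of the 100-base windows of each alpha-defensin transcript (vertical axis) that occurred unchanged in the transcript of another alpha-defensin gene (horizontal axis), with the 10 genes described here in bold and the diagonal in grey. Defa3 with Defa17 and Defa23 with Defa31 formed bright pairs, Defa20 shared windows with Defa2, Defa32 and Defa33, and the row of Defa24 held no shared window.

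The alpha-defensins were lower in the DSS library than in the control library for every one of the 10 genes. Together they took 66001 of 65493032 counts in the control library and 6633 of 59746968 counts in the DSS library, or 0.101% and 0.0111% of the counts. After scaling for library composition (TMM), the summed level was 922 CPM (scaled counts per 1000000) in the control and 121 CPM with DSS. This was 7.60-fold lower with DSS, a log2 ratio of -2.93 (95% counting interval -2.96 to -2.89). All 10 members lay at a log2 ratio of -2 or less, a line that 6.54% of the 17235 genes tested reached in that direction, a gene being tested when either library gave it 10 counts or more. At -3 or less there were 6 members, against 2.44% of all genes, and at -1 or less there were 10, against 20.2%. The median of the 10 single ratios was -3.33, and the median over all genes tested was -0.06. The summed ratio was -3.68 without Defa24, -2.30 over the 6 members with less than 50% of their 100-base windows shared and -2.21 over the 3 members below that share at 50 bases, selections made after the values were seen. Defa29 reached the count minimum through the control library only, which leaves 9 members that reached it in both libraries. In bulk RNA, fewer Paneth cells and less alpha-defensin RNA per Paneth cell cannot be told apart.

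Defa24, the most abundant member in both libraries, showed the smallest difference. It had 24940 counts in the control library and 4179 in the DSS library, or 348 and 76.4 CPM. The DSS level was 4.56-fold lower, at a log2 ratio of -2.19 (-2.24 to -2.14). By raw count Defa24 ranked 335th among all 19294 genes in the control and 2700th with DSS. Its sequence relative Defa30 had 4517 counts in the control and 524 with DSS, or 63.1 and 9.58 CPM. Its log2 ratio of -2.72 (-2.85 to -2.59) lay 0.53 below that of Defa24, and the counting interval of the difference (Defa30 minus Defa24, -0.67 to -0.39) did not include 0. These were the members whose transcripts shared the fewest 100-base windows with other genes.

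Defa3 and Defa17, the copies with the same coding sequence, were next in abundance and had nearly equal counts in each library. Defa17 had 16253 counts in the control and 847 with DSS, and Defa3 had 15488 and 792. Their log2 ratios were -3.87 (-3.98 to -3.77) and -3.90 (-4.01 to -3.80), with a difference of 0.03 (-0.12 to 0.17). Here and for the other copies below, the interval of a difference takes the counts as independent. Reads that match both copies would break this and draw the ratios together, so closeness of copies is not a result about each gene. Taken as 1 unit, the pair went from 443 CPM to 30.0 CPM, which was 14.8-fold lower. The ratio of Defa24 was higher than that of this pair by 1.70 on the log2 scale (1.61 to 1.78), and that of Defa30 was higher by 1.17 (1.02 to 1.32). The comparisons between members were chosen after their values were seen.

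Defa23 had a lower ratio still. It had 1797 counts in the control library and 48 in the DSS library, or 25.1 and 0.878 CPM, at a log2 ratio of -4.84 (-5.28 to -4.42). Its copy Defa31 had 1895 and 48 counts, and the ratios of these copies differed by -0.08 (-0.69 to 0.54, Defa31 minus Defa23). The summed pair was 29.4-fold lower with DSS. Although Defa23 resembles Defa3 and Defa17 in sequence, its ratio lay 0.95 below theirs (Defa23 minus the pair, -1.40 to -0.53).

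Defa20, Defa21, Defa22 and Defa26 were of low abundance and had ratios near the median of the members. Defa20 had 1132 counts in the control and 78 with DSS, at a log2 ratio of -3.47 (-3.82 to -3.14). The 4 genes Defa2, Defa20, Defa32 and Defa33 had 810 to 1132 counts each in the control and 59 to 78 with DSS, and their sum was at -3.39 (-3.58 to -3.22). Defa21 went from 679 to 70 counts, at -2.89 (-3.27 to -2.53), and Defa22 from 638 to 63 counts, at -2.95 (-3.35 to -2.58). The ratios of Defa21 and Defa22 could not be separated by these counts, with a difference of -0.06 (-0.60 to 0.48, Defa22 minus Defa21). Defa26, with few shared windows, had 346 and 29 counts, at -3.19 (-3.79 to -2.64). Its ratio was 0.70 above that of Defa3 and Defa17 (0.09 to 1.25).

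Defa29, the member with 11 cysteine codons, was the scarcest in both libraries. It had 211 counts in the control library and 3 in the DSS library, or 2.95 and 0.0549 CPM. The ratio of -5.75 rests on those 3 counts and had a wide interval, from -8.04 to -4.18. Because Defa29 passed the count minimum only where it was high, its ratio is given as a description, and no difference from the other members is given.

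**Figure D2:**
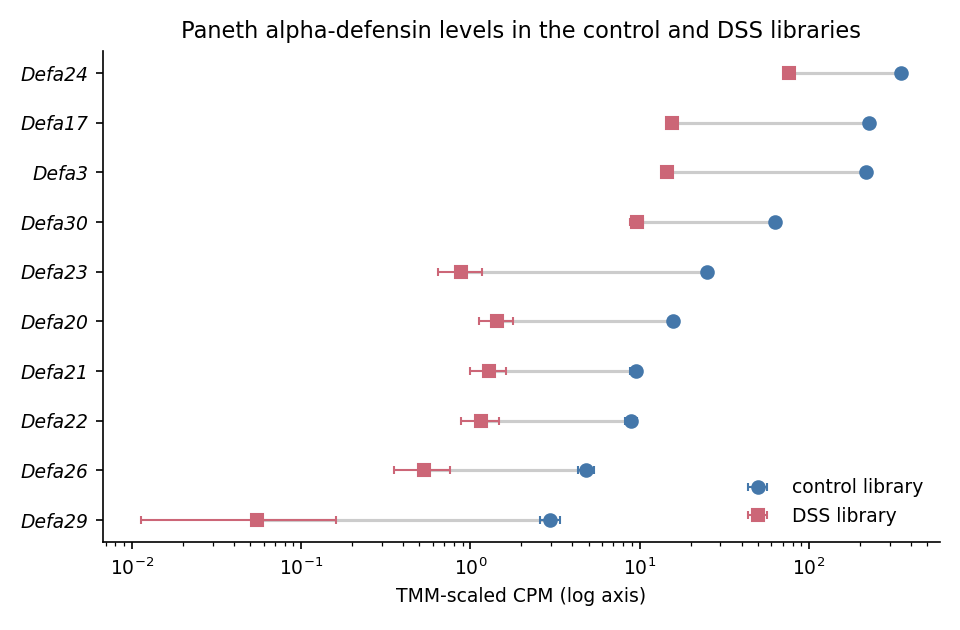
TMM-scaled CPM of each alpha-defensin gene on a log axis, in the control library (circles) and the DSS library (squares), with exact Poisson 95% counting intervals and 1 library per condition. Each square lies left of its circle, from 348 and 76.4 for Defa24 at the top to 2.95 and 0.0549 for Defa29 at the bottom.

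Levels of different genes were compared per kilobase of transcript. In the control, Defa24 was at 832 CPM per kb, Defa17 at 572, Defa3 at 528, Defa30 at 159, Defa23 at 61.1, Defa20 at 37.2, Defa21 at 22.7, Defa22 at 21.3, Defa26 at 13.0 and Defa29 at 5.80. Of the neighbours in this order, only the intervals of Defa21 and Defa22 overlapped. These intervals cover counting error only. The places of Defa3, Defa17, Defa20, Defa21, Defa22 and Defa23 also depend on how reads that match several copies were counted, which is not known. With DSS, Defa24 was at 182 CPM per kb, Defa17 at 39.0, Defa3 at 35.3, Defa30 at 24.1, Defa20 at 3.36, Defa21 at 3.06, Defa22 at 2.75, Defa23 at 2.14, Defa26 at 1.43 and Defa29 at 0.108. By point value, Defa23 was at place 5 in the control and at place 8 with DSS. The places of Defa24, Defa17, Defa3, Defa30, Defa26 and Defa29 were, by point value, the same in both libraries. The intervals of Defa17 and Defa3 overlapped with DSS, as did those of each pair of neighbours from Defa20 to Defa26, so that order is not resolved at this depth.

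The unequal ratios changed the make-up of the alpha-defensin RNA that was left, a measure that does not depend on scaling between libraries. Defa24 made up 37.8% of the summed counts of the 10 genes in the control library (exact 95% interval 37.4 to 38.2) and 63.0% in the DSS library (61.8 to 64.2). Defa3 and Defa17 together made up 48.1% and 24.7%. The share of Defa30 was 6.84% (6.65 to 7.04) and 7.90% (7.26 to 8.58). The share of Defa23 was 2.72% in the control and 0.724% with DSS, and that of Defa29 was 0.320% and 0.0452%. Taken as 1 unit, the Defa3 and Defa17 pair thus held the largest share in the control, and Defa24 held it with DSS. As a single gene, Defa24 had the largest share in both libraries. The share of the pair depends on how reads that match both copies were counted, which is not known. Without Defa24, the other 9 members had a summed log2 ratio of -3.68 (-3.74 to -3.62).

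**Figure D3:**
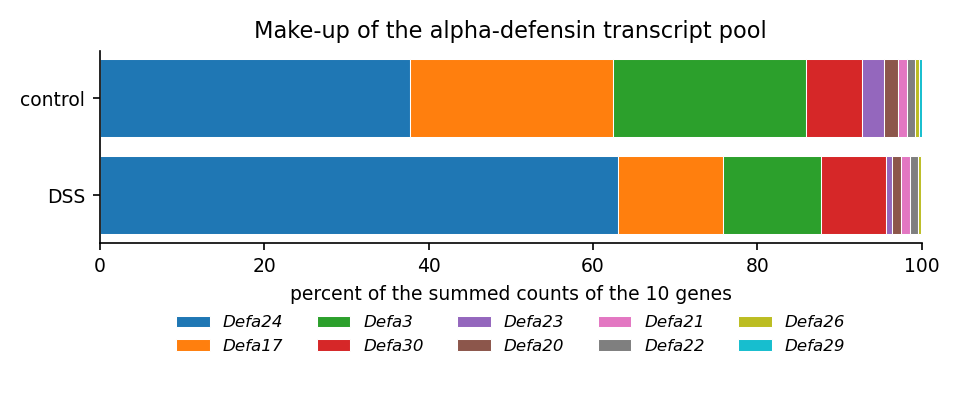
Percent of the summed counts of the 10 alpha-defensin genes taken by each gene in the control library (upper bar) and the DSS library (lower bar). The segment of Defa24 runs to 37.8% in the control and to 63.0% with DSS, and those of Defa17 and Defa3 together narrow from 48.1% to 24.7%.

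The alpha-defensin rows outside the 10 genes were lower with DSS as well. Of these 13 rows, 10 reached 10 counts in both libraries, while Gm14851, AY761184 and Defa-ps16 did so in the control only. All 13 lay at a log2 ratio of -2 or less, beside the 6.54% of all genes tested, and their sum went from 11199 to 722 counts, at -3.57 (-3.68 to -3.46). Over all 23 rows the sum was at -3.003 (-3.04 to -2.97), from 77200 to 7355 counts, and the median ratio was -3.45. A sum over all rows does not change when a read moves between these 23 rows, but reads placed on a copy outside the table, or left out for having several matches, are not in it. The pair Defa36 and Defa37, with the same coding sequence, had 2271 and 2257 counts in the control and 194 each with DSS. Defa5 had 244 and 19 counts, at -3.29, and Defa34 had 471 and 33, at -3.45.

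Besides Defa29, 4 other rows had 11 cysteine codons, Gm14851, Gm7849, Gm7861 and AY761184. RefSeq names these Defa38, Defa42, Defa43 and Defa39. Gm14851 had 431 counts in the control and 7 with DSS, at a log2 ratio of -5.56 (-6.88 to -4.50). Gm7849 and Gm7861, which had the same coding sequence, went from 894 to 26 counts together, at -4.72 (-5.34 to -4.15). AY761184 had 58 and 2 counts. The 5 rows with 11 cysteine codons ranged from -5.75 to -4.47 and summed to -5.00 (-5.51 to -4.54), on 38 counts with DSS. The 17 rows with 6 cysteine codons ranged from -4.91 to -2.19 and summed to -2.98 (-3.02 to -2.95). Of the 5 rows with 11 codons, only Gm7849 and Gm7861 reached 10 counts in both libraries, so the 2 sets of rows are described and not compared further. The ranges overlapped through Defa23 and Defa31, and this grouping was chosen after the values were seen.

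**Figure D4:**
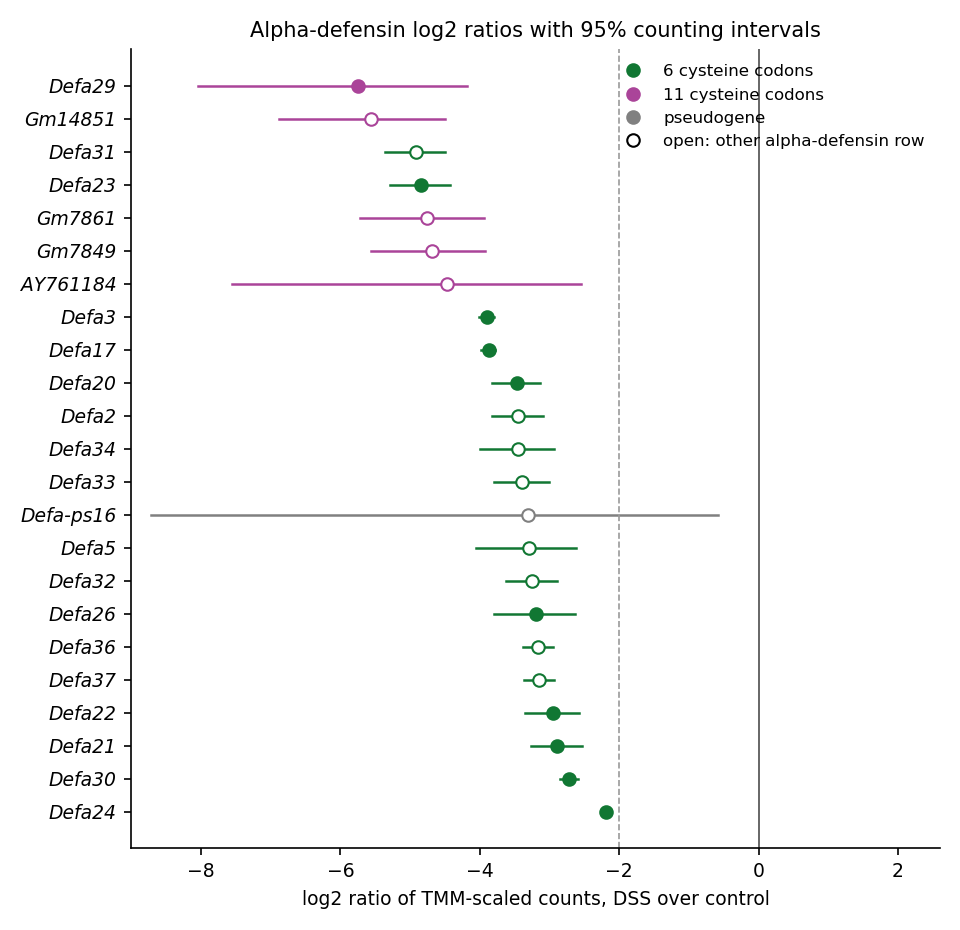
Log2 ratio of TMM-scaled counts, DSS over control, for all 23 alpha-defensin rows with 95% counting intervals, filled for the 10 genes described here and coloured by the number of cysteine codons. All points lie left of the dashed line at -2, Defa24 closest to it at -2.19, and the rows with 11 cysteine codons lie between -5.75 and -4.47.

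In the RefSeq gene order of assembly GRCm38.p6, some neighbouring members had like ratios and others did not. Among the 23 rows, Defa21 was number 1 along the cluster, Defa23 number 2, Defa30 number 4, Defa22 number 5, Defa3 number 7, Defa29 number 9, Defa20 number 15, Defa26 number 19, Defa17 number 20 and Defa24 number 23. The copies Defa3 and Defa17 were far apart in the order, at numbers 7 and 20. Reads may match both copies, so their nearly equal ratios are not separate values and do not bear on position. Defa23 differed in ratio from Defa21, the row next to it, and from Defa30, at number 4, by more than their intervals. Defa30 and Defa22, side by side at numbers 4 and 5, had overlapping intervals.

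Promoter sequence from RefSeq was given for 5 of the 10 genes, Defa20, Defa21, Defa22, Defa23 and Defa30. It is printed with the places of 2 motifs, the only ones searched, and their part in the ratios was not tested. The motifs searched on both strands of the 250 bases before the start were TATAAA, the TATA box, and CTTTGAT, whose reverse complement is ATCAAAG, bound by TCF/LEF proteins, the DNA-binding partners of beta-catenin. The last 150 bases before the start are shown 5′ to 3′, with both motifs in capitals.
Defa21 and Defa22: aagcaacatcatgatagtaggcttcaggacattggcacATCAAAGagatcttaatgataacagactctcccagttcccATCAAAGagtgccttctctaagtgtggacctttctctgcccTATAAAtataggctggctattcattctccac
Defa20: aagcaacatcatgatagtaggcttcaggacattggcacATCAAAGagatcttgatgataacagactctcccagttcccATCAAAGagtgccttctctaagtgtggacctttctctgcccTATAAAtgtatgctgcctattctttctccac
Defa23: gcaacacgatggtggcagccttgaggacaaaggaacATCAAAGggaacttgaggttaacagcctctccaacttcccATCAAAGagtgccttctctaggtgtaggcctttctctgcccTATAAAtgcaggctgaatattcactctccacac
Defa30: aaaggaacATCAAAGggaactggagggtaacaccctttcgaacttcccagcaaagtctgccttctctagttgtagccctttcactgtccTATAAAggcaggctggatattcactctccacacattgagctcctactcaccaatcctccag
These stretches lie at chr8:21025395-21025544, plus strand (Defa21), chr8:21162127-21162276, plus strand (Defa22), chr8:21509108-21509257, plus strand (Defa20), chr8:21054890-21055039, plus strand (Defa23) and chr8:21134500-21134649, plus strand (Defa30) in GRCm38.p6. ATCAAAG stood at -112 and -72 in Defa20, Defa21 and Defa22, at -114 and -74 in Defa23 and at -142 only in Defa30. TATAAA stood at -31, -33 and -61, in the same order, and did not overlap with the other motif. Positions were counted from the annotated start of each gene, so they do not by themselves show a different layout of the motifs. Of 32851 promoters of the same length, 3.21% held CTTTGAT on either strand and 12.4% held TATAAA. The 5 promoters are copies and not independent, since those of Defa21 and Defa22 were identical, that of Defa20 was 98.0% identical to them, and that of Defa23 was 78.0% identical to that of Defa21. Promoters were also given for rows outside the 10 genes. Defa2, Defa31 and Defa32 held ATCAAAG at 2 places, and Defa36 and Defa37 at 1. Gm14851, Gm7849 and Gm7861, the rows with 11 cysteine codons for which a promoter was given, held TATAAA at -74 and no CTTTGAT in the 250 bases. A match of letters is a description of the sequence and not a binding site.

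Other genes listed for Paneth cells gave a mixed picture beside the alpha-defensins. Bulk RNA does not show which cell type their counts came from. Mmp7, the convertase, had 997 counts in the control and 334 with DSS, a log2 ratio of -1.19 (-1.37 to -1.01). Among 11 other Paneth products, 7 were below 0 and 4 above, with a median of -0.88, where 8963 of all 17235 genes tested were below 0 and 8272 above. None was at -2 or less, and 2 were at 2 or more, which 7.87% of all genes tested reached. Lyz1, the Paneth lysozyme, went from 15939 to 5825 counts, at -1.06, and Itln1, a lectin, was at -1.03. Reg3b, an antimicrobial lectin, was at -1.41 and Habp2 at -1.73. Pnliprp2, a lipase, and Reg3a, another lectin, went the other way, at 4.24 and 3.84. By point value, each of the 23 alpha-defensin rows had a lower ratio than Mmp7 and than every one of these products. The interval of Defa-ps16, with 13 and 1 counts, ran from -8.72 to -0.58 and included the ratio of Mmp7. Defa29, Gm14851, AY761184 and Defa-ps16 reached 10 counts in the control library only.

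Genes that control or equip the Paneth cell did not move as a block. Of 13 regulators, 8 were above 0 and 5 below, a split near that of all genes, with a median of 0.34. Atoh1 and Spdef, transcription factors of the secretory lineage that goblet cells use as well, were at 3.25 and 2.43. Sox9, needed for Paneth cells to form, was at -1.86, and Ephb2, a receptor that sorts cells along the crypt, at -1.70. Fgfr3 was at 1.41 and Tcf7l2, which encodes a TCF/LEF protein, at 1.28. Of 9 granule and secretion genes, 6 were above 0 and 3 below, with a median of 0.28. Kcnn4, a calcium-activated potassium channel, was the only one at -2 or less, with 507 and 44 counts and a ratio of -3.14. Slc39a4, a zinc importer, was at 1.18, Vamp8 at 0.58, Rab2a at 0.46, Slc30a2, a zinc exporter, at -0.44 and Irgm1 at 0.42. Of 5 niche ligands, the Notch ligands Dll1 and Dll4 were at 1.14 and 0.61 and Tgfa at 0.82, while Egf was at -0.88 and Wnt3 at -0.68. Mptx2 and Lrrk2 were not in the table, which lists only genes with at least 1 count in both libraries.

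**Figure D5:**
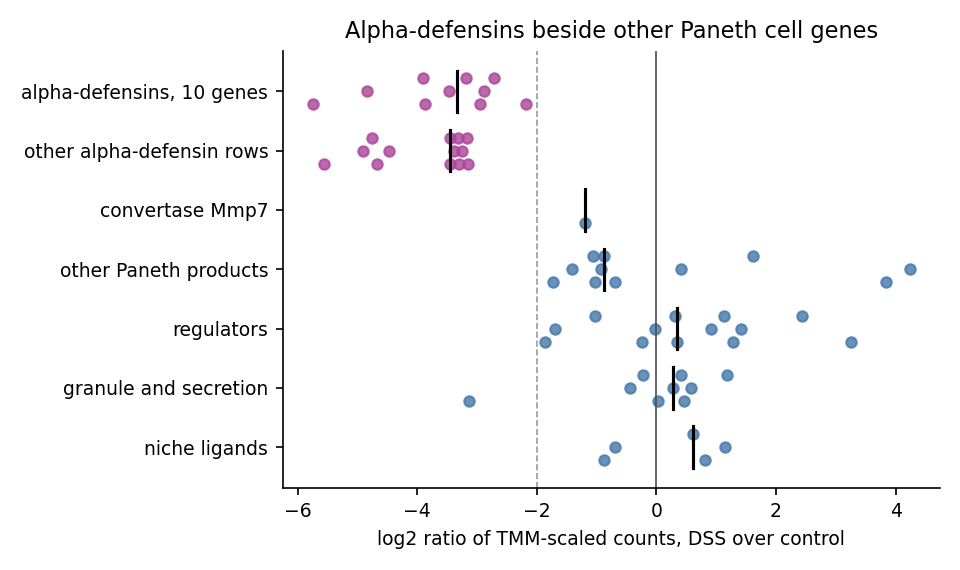
Log2 ratio of TMM-scaled counts, DSS over control, for the 10 alpha-defensin genes, the 13 other alpha-defensin rows, Mmp7 and 4 lists of Paneth cell genes, with 1 point per gene, the median as a black bar and a dashed line at -2. The alpha-defensins lie between -5.75 and -2.19, and the medians of the other lists lie at -0.88, 0.34, 0.28 and 0.61.

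Markers of other cells moved between the same libraries. All 5 stem cell markers were below 0, with a summed level of 832 CPM in the control and 130 CPM with DSS, and their log2 ratios ran from -9.59 (Olfm4) to -1.25 (Smoc2, the one with the most counts). Lgr5, which carries the reporter, was at -3.78. All 7 goblet cell markers were above 0, from 863 to 11692 CPM, with Fcgbp at 3.77, and so were all 8 enterocyte markers, from 2356 to 22861 CPM, with Sis at 3.32, and all 6 enteroendocrine markers, from 795 to 3948 CPM, with Chgb at 2.30. The 4 tuft cell markers were below 0, with a median of -1.52, from -2.20 (Pou2f3) to -0.88 (Trpm5, the one with the most counts). That median lies between the ratios of Dclk1, with 47 and 10 counts, and Rgs13, with 12 and 4. The interval of Rgs13, from -3.29 to 0.53, included 0. The part of all these marker changes in the alpha-defensin values was not tested. Of 10 immune cell markers only Csf1r was in the table, with 9 and 21 counts, and Ptprc was not. The 4 mesenchymal markers present summed to 1.44 and 2.10 CPM, with Pdgfrb at 0.32. The labels name intestinal stem cells as the cell type, and both libraries held markers of stem, Paneth, goblet, enterocyte and enteroendocrine cells.

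The genes whose ratio lay nearest to that of the summed alpha-defensins, among those with at least 1000 control counts, were Etv4, Rrp1b and L1cam at -2.93, Ccnd1 at -2.94 and Tubb5 at -2.92. Tubb5 went from 47989 to 4854 counts. Likeness here is a single ratio over 2 libraries.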

How the data were processed

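The mRNA of 1 control and 1 DSS-treated culture was sequenced from libraries of a stranded kit. Raw counts of reads for each gene were deposited by the authors with NCBI gene identifiers. The submitters' processing notes name HISAT2 and StringTie without versions. The counting program, the genome build and the treatment of reads with several matches are not given in the sources used here. The files of the single samples carry FPKM in their names but repeat the same counts, and were not used.

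The libraries held 65493032 (control) and 59746968 (DSS) counts. TMM factors (edgeR 4.0.16, R 4.3.3) scaled the counts. Ratios of scaled counts carry exact Clopper-Pearson 95% intervals from the pair of counts. No test between conditions was possible with single libraries. Genes that reached 10 counts in either library were counted past a line of 2 on the log2 scale. Sequences came from GENCODE M21 transcripts (GRCm38) and RefSeq promoters (GRCm38.p6). All 23 alpha-defensin rows matched a RefSeq gene by identifier, and all had a transcript, 22 of them found by accession and 1 by symbol. RefSeq lists 40 alpha-defensin genes, 29 of them protein-coding, of which 22 were in the table. Copies were grouped when their coding sequences differed at 2 bases or fewer.

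The genes and lists were chosen with earlier results of these data known. Named genes are all alpha-defensin rows, Mmp7, up to 6 genes with the largest absolute ratios and at least 50 counts from each Paneth cell list, the 5 genes nearest in ratio, and the marker with the most counts over both libraries from each other list. Lgr5, Olfm4, Pou2f3, Dclk1 and Rgs13 fall outside this rule and were chosen after their values were seen. Ptprc, Mptx2 and Lrrk2 are named as not in the table. The computation was tested on simulated counts. Python 3.11.15, numpy 2.4.6, scipy 1.17.1, pandas 2.3.3 and matplotlib 3.10.9 were used. The alternatives were upper quartile factors, scaling by total counts, size factors of DESeq2 1.42.0, centring on the median gene, adding a prior count of 2, other count minimums and lines, and sums that leave out a member.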

Additional observations from a re-analysis of the deposited data

How the results depend on the processing

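Of 107 alternative log2 ratios, 0 changed sign. For the alpha-defensins a change of sign was hardly possible. Each other scaling moved all genes by the same amount, -0.26 at the largest, and sums that left out a member held only genes below 0. Each of the 10 alpha-defensins stayed below 0 under 4 other scalings and with a prior count of 2. Of these 50 values, 44 stayed within their counting intervals, which are wide where counts are low. The other 6 were of Defa24, Defa3, Defa17 and Defa30, the members with the most counts and the narrowest intervals. Scaling by total counts shifted the median gene by -0.26, and changed the summed log2 ratio of the 10 genes from -2.93 to -3.18, that of all 23 rows to -3.26, Mmp7 to -1.45, and the medians of the Paneth products, regulators, granule genes and niche ligands to -1.14, 0.082, 0.025 and 0.36. Upper quartile factors gave -2.84 for the 10 genes and -2.91 for all rows, and centring on the median gene gave -2.87 and -2.95. The sum was -2.72 without Defa3, -2.72 without Defa17 and -3.68 without Defa24, and the median of the single ratios was -3.33. In alternatives added after seeing the data, the sum was -2.72 with 1 member per copy group (8 genes), -2.30 over the 6 genes with less than 50% of their 100-base windows shared and -2.21 over the 3 genes below that share at 50 bases. At a line of -3, 6 members and 421 of all genes were counted, against 10 and 1127 at -2, and 3486 of all genes lay at -1 or less. As a share of all 23 rows, Defa24 made up 32.3% in the control and 56.8% with DSS. No paired analysis was possible because each condition had 1 library. The depth limited Defa29, AY761184 and Defa-ps16, with 3, 2 and 1 counts in the DSS library.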

Other observations

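Copies with the same promoter letters had close ratios. Defa21 and Defa22, with identical promoters over 250 bases, were at log2 ratios of -2.89 and -2.95, and Defa23 and Defa31, also identical there, at -4.84 and -4.91. These pairs also share transcript windows, so their counts are not independent. Defa23 and Defa21, whose promoters each held ATCAAAG at 2 places and were 78.0% identical, differed in ratio by more than their intervals.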
